A study of Mus musculus with 6 samples.

Results

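The genes described here are 10 that carry, restrain or follow the JAK and STAT signal of cytokine receptors. They are the SOCS family genes Socs1, Socs2, Socs3 and Cish, the PIM kinase genes Pim1, Pim2 and Pim3, the cytokine gene Osm, and the transcription factor genes Stat3 and Stat5a. They were taken by symbol from a deposited table of 24421 genes, and all 10 were found and all 10 passed the filter on low counts. The 6 libraries came from lineage-depleted femoral bone marrow of C57BL/6 mice with the genotype Dek -/-, 3 from cells given exogenous DEK and 3 from cells given vehicle. By their labels both groups come from the Dek knockout, and the difference between them is the DEK supplied from outside; the labels give no dose, time, age or number of animals. Lineage depletion on magnetic columns removes most mature blood cells and leaves a mixture, and in such bulk RNA more cells of one type and more RNA per cell cannot be told apart.

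Cytokine receptors without kinase activity of their own carry JAK kinases, which phosphorylate STAT proteins after a cytokine binds. STAT dimers then enter the nucleus and switch on target genes, and in blood cells these include genes that restrain or extend the same signal. SOCS proteins bind phosphorylated receptors or JAKs through an SH2 domain and shut the signal down, whereas PIM kinases are serine/threonine kinases that promote survival and growth. The transcripts of several of these genes are short-lived and follow cytokine exposure closely.

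None of the 10 genes passed the edgeR test for a difference between DEK-treated and vehicle-treated cells, with or without pairing libraries by replicate number. Of all 13803 genes tested, edgeR called 0 without pairing and 177 with it. With pairing, DESeq2 and limma-voom called Socs3 (adjusted p = 1.2e-05 and 0.0250), where they called 347 and 171 of all genes. The labels do not say what a replicate number marks. Socs1 and Socs3, which encode the inhibitors that act on JAK kinases directly, had the largest fitted differences, at 3.11-fold and 2.04-fold. Each was higher in the DEK library at all 3 replicate numbers, against 16.3% of all genes. By the same count Stat3 was too, although it was level at number 1. Without DEK replicate 3 alone the log2 differences of Socs1 and Socs3 dropped to 0.31 and 0.30, against 1.64 and 1.03 with it. With both libraries numbered 3 left out, an alternative chosen after seeing the data, they were 0.68 and 0.88, not called without pairing. Osm, Pim1 and Cish had fitted differences of 1.87-fold, 1.57-fold and 1.44-fold. Their log2 values were below 0 when DEK replicate 3 alone was left out, and 0.16, 0.27 and 0.08 when both libraries numbered 3 were. Pim2, Pim3, Stat3 and Stat5a lay within 1.21-fold of equality, and Socs2 was the least abundant of the 10. Libraries numbered 3 were the highest of their group in both groups for 7 of the 10 genes, against 31.5% of all genes tested. For the SOCS family genes, Pim1 and Osm, vehicle replicate 3 was 1.85 to 2.45 times the mean of the other vehicle libraries. DEK replicate 3 was 2.94 to 5.49 times that of the other DEK libraries.

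Stretches upstream of 4 of these genes are shown because they differ in the short motifs through which STAT and interferon regulatory factors bind DNA. Sequences are RefSeq's on GRCm38.p6 (the mm10 build), from 250 bases before to 50 bases after the annotated transcript start, 5′ to 3′ on the gene's strand. Windows were found for 8 of the 10 genes, 10 windows in all. Socs2 and Osm had no window and were not searched. Capitals mark matches to TTCNNNGAA, the palindrome of STAT sites, and to a direct repeat found in interferon response elements, GAAA and GAAA with 2 bases of any kind between them. Both strands were searched.
Cish, chr9:107296409-107296708, plus strand: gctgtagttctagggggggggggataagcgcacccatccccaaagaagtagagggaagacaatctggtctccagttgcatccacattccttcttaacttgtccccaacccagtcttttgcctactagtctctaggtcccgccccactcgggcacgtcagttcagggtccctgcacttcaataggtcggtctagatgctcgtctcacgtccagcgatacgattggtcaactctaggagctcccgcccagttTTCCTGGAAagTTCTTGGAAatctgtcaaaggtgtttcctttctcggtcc
Socs3, chr11:117969317-117969616, minus strand: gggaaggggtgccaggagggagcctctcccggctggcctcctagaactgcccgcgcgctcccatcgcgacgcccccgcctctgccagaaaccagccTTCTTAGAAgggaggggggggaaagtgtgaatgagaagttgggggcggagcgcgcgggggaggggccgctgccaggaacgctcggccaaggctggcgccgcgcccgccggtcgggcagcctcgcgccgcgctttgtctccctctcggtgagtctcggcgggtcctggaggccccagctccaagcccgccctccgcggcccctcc
Socs1, chr16:10785487-10785786, minus strand: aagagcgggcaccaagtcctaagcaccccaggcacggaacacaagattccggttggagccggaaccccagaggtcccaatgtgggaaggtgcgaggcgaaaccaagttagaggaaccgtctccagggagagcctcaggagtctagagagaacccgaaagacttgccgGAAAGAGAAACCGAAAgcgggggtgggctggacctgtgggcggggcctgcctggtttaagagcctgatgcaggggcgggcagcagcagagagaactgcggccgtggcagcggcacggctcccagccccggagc
Pim1, chr17:29490535-29490834, plus strand: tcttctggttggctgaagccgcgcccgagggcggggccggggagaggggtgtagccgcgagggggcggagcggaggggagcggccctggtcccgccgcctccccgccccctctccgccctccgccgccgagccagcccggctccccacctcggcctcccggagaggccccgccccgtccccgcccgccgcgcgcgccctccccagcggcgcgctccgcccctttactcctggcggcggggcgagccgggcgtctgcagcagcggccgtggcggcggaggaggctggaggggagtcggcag
The Cish window holds 2 STAT palindromes, TTCCTGGAA and TTCTTGGAA, whose first bases lie at positions 1 and 12 counted from the window's transcript start. In the annotation used for the counts, Cish starts farther downstream, at 107296689, past both matches. The Socs3 window holds 1, TTCTTAGAA, which begins 154 bases upstream. The Socs1 window holds 2 overlapping matches to the interferon-type repeat, GAAAGAGAAA and GAAACCGAAA, which begin 83 and 77 bases upstream. The Pim1 window shown holds neither motif, and no other window of the genes held one. That Pim1 window ends at 29490834, before the Pim1 start in the annotation used for the counts, 29491045. Of all 32851 promoter windows of 300 bases, 8.30% held TTCNNNGAA and 0.457% held it at least 2 times, while 3.44% held the interferon-type repeat and 0.225% held it at least 2 times. These matches are letters in a window and not measured binding.

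In the mm10 annotation of the table, 4 of the 10 genes lie on chromosome 11. Stat5a (plus strand, 100859351 to 100885169) and Stat3 (minus strand, 100886810 to 100939511) are neighbours there, while Socs3 (minus strand, 117966087 to 117969366) and Osm (plus strand, 4236785 to 4241026) lie farther away. Socs1 lies on chromosome 16 (minus strand, 10783809 to 10785536), Socs2 on chromosome 10 (minus strand, 95411490 to 95416857) and Cish on chromosome 9 (plus strand, 107296689 to 107301961). Pim1 lies on chromosome 17 (plus strand, 29491045 to 29495459), Pim2 on chromosome X (plus strand, 7878306 to 7883432) and Pim3 on chromosome 15 (plus strand, 88862194 to 88865726). None of the 10 shares exon bases with another gene, and the counts are sums over exons, untranslated parts included.

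Total counts ran from 42496076 to 49128378 in the DEK libraries and from 34875736 to 48867857 in the vehicle libraries, and the 10 genes together took between 0.0620% and 0.132% of them. Dek had 712 to 869 counts in the DEK libraries and 672 to 863 in the vehicle libraries; a sum over the whole gene cannot show which part a knockout removed, so it does not check the genotype. Both libraries numbered 3 stood apart in neutrophil transcripts. The 10 neutrophil markers, all with reads in every library, took 5.73% of counts in DEK replicate 3, where DEK replicates 1 and 2 had 0.849 and 0.627%. They took 6.44% in vehicle replicate 3, where vehicle replicates 1 and 2 had 0.693 and 0.666%. Other shares differed there too. The 6 eosinophil markers took 0.287% in DEK replicate 3 and 0.433% in vehicle replicate 3, against 0.815 to 1.41% in the others. At each number the eosinophil share was lower in the DEK library. The mast cell and basophil share and the B cell share were also lowest in the libraries numbered 3, and the erythroid share was highest. Rn45s, the ribosomal precursor, took 4.89% of vehicle replicate 1 and 0.159 to 0.331% of the others. The 6 stem and progenitor markers took 0.0472 to 0.0771% in DEK libraries and 0.0371 to 0.0803% in vehicle libraries, and were lowest in the library numbered 3 of each group. Hba-a1 and Hbb-bt, of the 5 erythroid markers, had 0 counts in every library.

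Levels were compared between genes as TMM-scaled CPM (counts-per-million) divided by exon length in kilobases (RPKM), in which longer transcripts are not favoured. Pim1 was the most abundant, with 192 ± 140 RPKM in DEK libraries and 122 ± 52.1 RPKM in vehicle libraries (SD, n = 3 each). Stat3 followed with 78.7 ± 21.5 RPKM in DEK libraries and 65.3 ± 9.53 RPKM in vehicle libraries, well above Stat5a with 17.6 ± 2.07 and 18.5 ± 2.16 RPKM in DEK and vehicle libraries (SD, n = 3 each). In the vehicle libraries the order then ran through Socs3, Osm, Pim2, Pim3, Socs1 and Cish to Socs2, which stood at 0.767 ± 0.535 RPKM in DEK libraries and 0.960 ± 0.457 RPKM in vehicle libraries. From Stat5a down to Cish the ranges of neighbours overlapped in the vehicle libraries, so that part of the order lies within the spread between libraries. In those libraries the ranges of Pim1 and Stat3, of Stat3 and Stat5a, and of Cish and Socs2 did not overlap; in the DEK libraries those of Pim1 and Stat3 did. Socs1 ranked 5 of 10 by its DEK mean and 8 of 10 by its vehicle mean, at 19.6 ± 20.5 RPKM against 6.31 ± 2.44 RPKM (SD, n = 3 each).

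**Figure D1:**
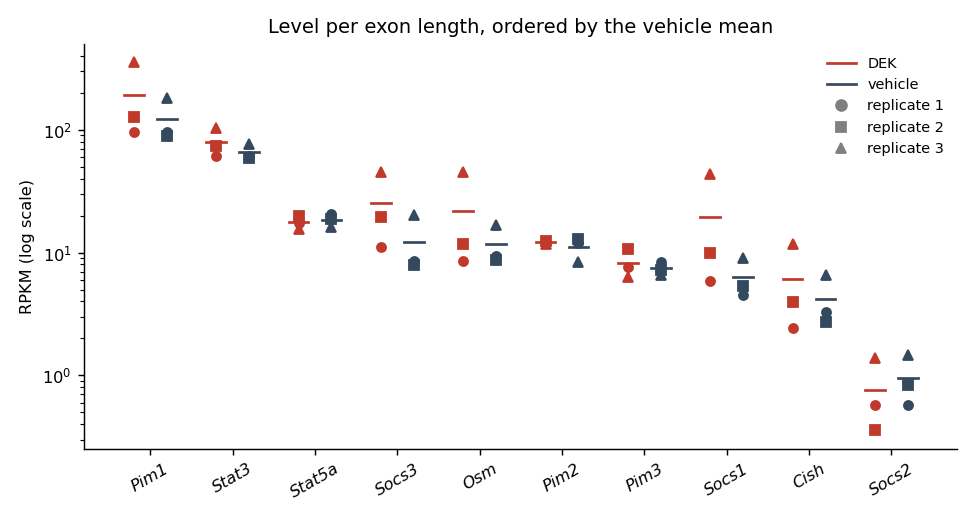
Level of the 10 genes per exon length, in RPKM on a log axis, with 1 point per library (shape gives the replicate number) and a line at the mean of 3 libraries, DEK left of vehicle. Pim1 and Stat3 lead in both groups, Socs2 is lowest, and the triangles of replicate 3 lie above the other points for Pim1, Stat3, Socs3, Osm, Socs1, Cish and Socs2.

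Socs1 encodes the inhibitor best known for restraining interferon gamma signalling. Its level was 7.82, 13.2 and 57.8 CPM in DEK replicates 1, 2 and 3, against 6.04, 7.13 and 12.2 CPM in vehicle replicates 1, 2 and 3. The first DEK library lay below the highest vehicle library, so the groups overlapped, and DEK replicate 3 was 5.49 times the mean of the other DEK libraries. The fitted log2 difference was 1.64 ± 0.78 (SE), with an unadjusted p of 0.0783 and an adjusted p of 1.00 by edgeR's quasi-likelihood test. Between libraries of equal number the log2 differences were 0.37, 0.89 and 2.24 for numbers 1, 2 and 3.

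Socs3 encodes the inhibitor of signals through gp130, the receptor subunit shared by interleukin 6 and oncostatin M, and of the granulocyte colony-stimulating factor receptor. It stood at 30.4, 52.6 and 122 CPM in DEK replicates 1, 2 and 3, against 23.4, 21.7 and 55.2 CPM in vehicle replicates 1, 2 and 3. Among the libraries numbered 1 and 2, both DEK values lay above both vehicle values, while vehicle replicate 3 exceeded them. The fitted log2 difference was 1.03 ± 0.60 (SE; adjusted p = 1.00, edgeR). With the replicate number as a block, which compares libraries of equal number, it was 0.94 ± 0.18 (SE; adjusted p = 0.0890, edgeR). Socs3 was the only one of the 10 genes that other tools called with the same block, at an adjusted p of 1.2e-05 by DESeq2 and 0.0250 by limma-voom. It was higher in 3 of 3 DEK libraries than in the vehicle library of equal number, by 0.38, 1.27 and 1.14 on the log2 scale.

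Cish and Socs2 encode SOCS proteins that occupy phosphorylated sites on receptors, and Cish is a classical target of STAT5. Cish stood at 5.27, 8.57 and 25.5 CPM in DEK replicates 1, 2 and 3, against 7.12, 5.93 and 14.2 CPM in vehicle replicates 1, 2 and 3. DEK replicate 1 was the lowest of the 6 libraries and DEK replicate 3 the highest, and the log2 differences by number were -0.43, 0.53 and 0.84. Socs2, a regulator of growth hormone signalling, stood at 1.54, 0.966 and 3.70 CPM in DEK replicates 1, 2 and 3, against 1.56, 2.25 and 3.96 CPM in vehicle replicates 1, 2 and 3. These rest on counts of only 49 to 160 per library, and the log2 differences were -0.02, -1.19 and -0.10. The fitted log2 differences of Cish and Socs2 were 0.53 ± 0.64 and -0.32 ± 0.59 (SE), within their errors.

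**Figure D2:**
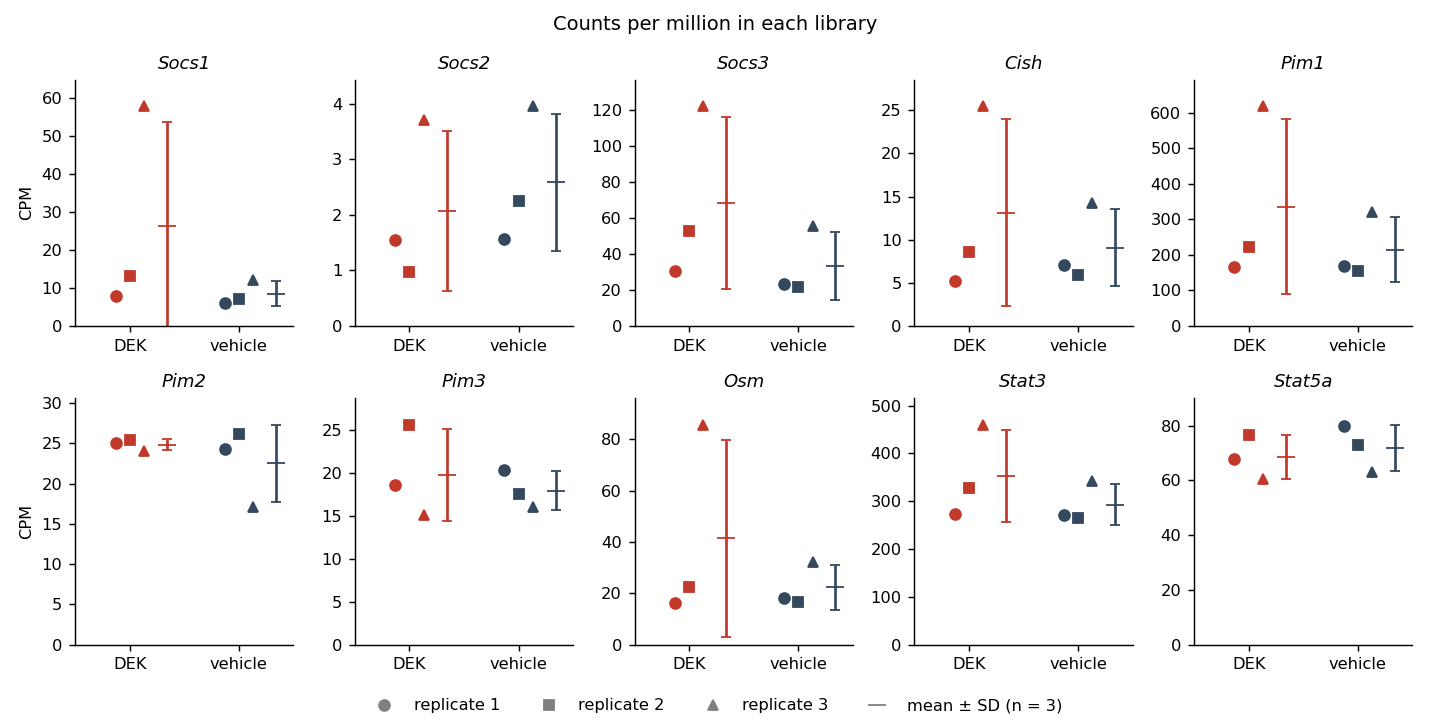
CPM of each gene in each library, DEK left of vehicle, with 1 point per library, its shape giving the replicate number, and the mean ± SD of 3 libraries beside them; the lower bar of Socs1 is cut at 0. In Socs1, Socs3, Cish, Pim1, Osm and Stat3 the triangle of DEK replicate 3 lies above every other point, while in Pim2, Pim3 and Stat5a the triangles are the lowest points of their group.

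Of the PIM genes Pim1 varied most between libraries. Pim1, a target of both STAT3 and STAT5, stood at 167, 223 and 618 CPM in DEK replicates 1, 2 and 3, against 168, 156 and 319 CPM in vehicle replicates 1, 2 and 3. The log2 differences by number were -0.0079, 0.52 and 0.95, so the libraries numbered 1 were level. The fitted log2 difference was 0.65 ± 0.56 (SE; adjusted p = 1.00, edgeR).
Pim2, which in lymphoid and myeloid cells supports protein synthesis and survival, stood at 25.1, 25.4 and 24.1 CPM in DEK replicates 1, 2 and 3, against 24.3, 26.2 and 17.1 CPM in vehicle replicates 1, 2 and 3. Pim3 stood at 18.6, 25.7 and 15.2 CPM in DEK replicates 1, 2 and 3, against 20.4, 17.5 and 16.0 CPM in vehicle replicates 1, 2 and 3. The groups of both genes overlapped, and their fitted log2 differences were each 0.14, with SE of 0.18 and 0.22. Pim1 made up 82.7, 84.7 and 95.1% of the summed PIM RPKM in DEK replicates 1, 2 and 3, against 82.5, 81.5 and 92.4% in vehicle replicates 1, 2 and 3.

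Osm encodes oncostatin M, a cytokine of the interleukin 6 family made by myeloid cells and itself a STAT5 target in cytokine-stimulated blood cells. It stood at 16.4, 22.3 and 85.8 CPM in DEK replicates 1, 2 and 3, against 18.0, 16.6 and 32.2 CPM in vehicle replicates 1, 2 and 3. DEK replicate 3 was 4.43 times the mean of the other DEK libraries, and vehicle replicate 3 was 1.86 times the mean of the other vehicle libraries. The fitted log2 difference was 0.90 ± 0.67 (SE; adjusted p = 1.00, edgeR), from log2 differences of -0.13, 0.42 and 1.41 by number.
The receptor chain that oncostatin M pairs with gp130, Osmr, had at most 4 counts in any library and was not tested. The gp130 gene itself, Il6st, stood at 357, 406 and 170 CPM in DEK replicates 1, 2 and 3, against 288, 296 and 174 CPM in vehicle replicates 1, 2 and 3 (adjusted p = 0.410, edgeR with the block). It was lowest in each group in the libraries in which Osm was highest.

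Stat3 encodes the transcription factor used by gp130 and the granulocyte colony-stimulating factor receptor. It stood at 272, 328 and 460 CPM in DEK replicates 1, 2 and 3, against 272, 265 and 342 CPM in vehicle replicates 1, 2 and 3, a fitted log2 difference of 0.27 ± 0.22 (SE; adjusted p = 1.00, edgeR). Stat5a encodes one of the paired STAT5 factors used by interleukin 3, erythropoietin and thrombopoietin. It stood at 67.8, 76.7 and 60.6 CPM in DEK replicates 1, 2 and 3, against 79.8, 73.0 and 63.0 CPM in vehicle replicates 1, 2 and 3, a fitted log2 difference of -0.07 ± 0.14 (SE). Stat5a and its neighbour Stat5b are close paralogs, so their split of reads is uncertain. Per exon length, Stat3 was 3.48, 3.70 and 6.58 times Stat5a in DEK replicates 1, 2 and 3, against 2.96, 3.14 and 4.70 times in vehicle replicates 1, 2 and 3.

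Over the 10 genes, 0 passed an adjusted p of 0.05, where edgeR called 0% of the 13803 genes tested as higher and 0% as lower. At an unadjusted p under 0.05 there were 0 of the 10 and 360 of all genes, 2.61% of them, and DESeq2 and limma-voom called 0 of the 10 as well. With the replicate block edgeR again called 0 of the 10, where 1.28% of all genes were called, 0.869% higher and 0.413% lower. At an unadjusted p under 0.05 there were then 3 of the 10 (Socs3, Pim1 and Stat3) and 1581 of the 13803 genes tested, and DESeq2 and limma-voom each called Socs3. The groups did not overlap for 0 of the 10 genes, against 3.78% of all genes with DEK higher and 3.41% with DEK lower. In the comparison by equal number, 3 of the 10 (Socs1, Socs3 and Stat3) were higher in DEK at all 3 numbers, against 16.3% of all genes, although Stat3 was level at number 1. Socs2 was lower at all 3, against 18.2%. The median log2 difference of the 10 genes was 0.40 in the fit of all 6 libraries, where that of all genes tested was 0.0018. Leaving out 1 library gave a median of 0.66 without DEK replicate 1, 0.016 without DEK replicate 3 and 0.70 without vehicle replicate 3. By number it was -0.01, 0.47 and 0.67 for numbers 1, 2 and 3, where all genes had medians of -0.02, 0.0057 and -0.0059.

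**Figure D3:**
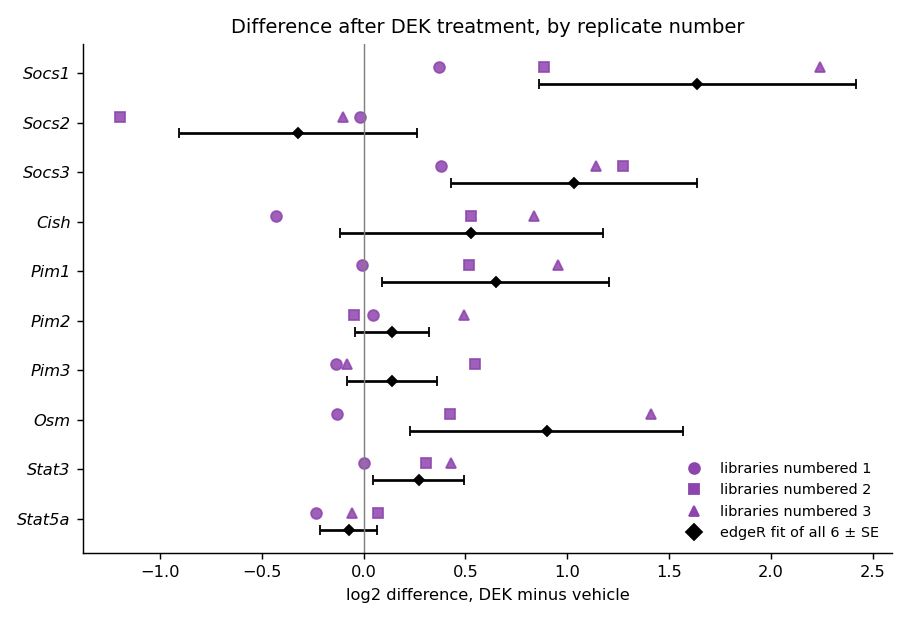
Log2 difference of DEK minus vehicle for each gene between libraries of equal number (purple, shape gives the number) and in the edgeR fit of all 6 libraries (black, ± SE). Socs1 and Socs3 lie right of 0 at all 3 numbers, whereas Cish and Osm lie left of 0 at number 1 and right of it at numbers 2 and 3.

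The library numbered 3 was the highest of its group in both groups for 7 of the 10 genes, against 31.5% of all genes tested. These were Socs1, Socs2, Socs3, Cish, Pim1, Osm and Stat3; Pim2, Pim3 and Stat5a were lowest there in both groups. In the vehicle group replicate 3 stood 1.85 to 2.45 times above the mean of the other libraries for the SOCS family genes, Pim1 and Osm, and 1.27 times for Stat3. In the DEK group the same genes stood 2.94 to 5.49 times above, and Stat3 1.53 times. The neutrophil share given above was high in the same libraries, and other cell type shares differed there too. The part of cell content in these values was not tested.
Leaving out DEK replicate 3 alone gave log2 differences of 0.31 for Socs1, 0.30 for Socs3, -0.40 for Cish, -0.14 for Pim1 and -0.21 for Osm. Leaving out vehicle replicate 3 alone gave 2.00 for Socs1, 1.599 for Socs3, 1.01 for Cish, 1.06 for Pim1 and 1.26 for Osm. With both left out and no block, an alternative chosen after seeing the data, the values were 0.68 for Socs1 and 0.88 for Socs3. They were 0.08 for Cish, 0.27 for Pim1 and 0.16 for Osm, and none of these genes was called. On the same libraries with the replicate block, Socs3 and Socs1 were called (adjusted p = 5.8e-07 and 0.0227, edgeR).

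Patterns over the 6 libraries were compared by Pearson's correlation of log2 CPM with 12112 other genes of at least 1 CPM on average, as a description that the libraries numbered 3 dominate. The genes most like Socs3 were Nod2, Psme2b and Pstpip2, and those most like Osm were Psme1, Eif2ak2 and Dedd2. Those most like Pim1 were C4b, Nxn and Isg15, and those most like Cish were Fnbp1, Nlrc5 and Nacad. All 12 had correlations of at least 0.998. Nod2, for example, ranged from 11.8 to 41.2 CPM in DEK libraries and from 8.63 to 21.0 CPM in vehicle libraries, and Isg15 from 15.7 to 252 CPM and from 16.3 to 67.2 CPM in DEK and vehicle libraries.

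Other genes of the pathway were taken as 7 lists, 70 genes of which 68 could be tested. In the fit of all 6 libraries 0 of the 68 passed and 7 had an unadjusted p under 0.05, against 2.61% of all genes. With the replicate block 6 rose, where 0.869% of all genes rose, and 0 fell, where 0.413% fell. Of the 6 that rose, 5 were STAT3 and STAT5 target genes. The remaining SOCS genes, which are not classical cytokine-induced members, had 0 of 4 called and a median log2 difference of -0.03 with the block. Socs6 stood at 38.8, 34.3 and 24.4 CPM in DEK replicates 1, 2 and 3, against 36.2, 37.2 and 31.7 CPM in vehicle replicates 1, 2 and 3, and Socs7 ranged from 36.2 to 48.4 CPM in DEK libraries and from 35.5 to 50.4 CPM in vehicle libraries.

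The JAK kinase genes had 0 of 4 called and a median of 0.17 with the block. Jak3 and Tyk2 had the smallest p, with log2 differences of 0.30 ± 0.12 and 0.24 ± 0.10 (SE; adjusted p = 0.362 and 0.390, edgeR with the block). Some exons of Jak3 are shared with Insl3, so its value is uncertain. The other STAT genes had 0 of 5 called and a median of 0.09. Stat6, the mediator of interleukin 4 signals, ranged from 297 to 402 CPM in DEK libraries and from 299 to 376 CPM in vehicle libraries.

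The STAT3 and STAT5 target genes had 5 of 20 rise with the block, where 0.869% of all genes rose, and 0 fall, where 0.413% fell. Their median log2 difference was 0.35; all 20 were above 0, as were 6822 of the 13803 genes tested. Il1rn, the interleukin 1 receptor antagonist, rose 1.88-fold, and Bcl3, a nuclear regulator of NF-kB, rose 1.67-fold (adjusted p = 0.0277 and 0.0107, edgeR with the block). The transcription factor gene Cebpd, the secreted glycoprotein gene Lrg1 and the hypoxia factor gene Hif1a rose 1.55-fold, 1.55-fold and 1.53-fold (adjusted p = 0.0107, 0.0130 and 0.0147, edgeR with the block). Bcl3 stood at 51.3, 69.5 and 73.3 CPM in DEK replicates 1, 2 and 3, against 38.3, 38.6 and 38.2 CPM in vehicle replicates 1, 2 and 3. Its groups did not overlap, nor did those of Hif1a, Cebpd and Junb, 4 of 20 in all and each with DEK higher, against 3.78% of all genes; Junb was not called (adjusted p = 0.0624, edgeR with the block) and is named after its values were seen. Cebpd overlaps exons of Spidr on the opposite strand and was counted without strand, so its value is uncertain. Most of these genes answer to other pathways as well, NF-kB among them, and the list was chosen with earlier results of these data known.

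Of the receptors that use JAK kinases in blood cells, 1 of 16 rose with the block, where 0.869% of all genes rose. Of this list 0 fell, where 0.413% of all genes did, and the median was 0.15. Il2rg, the common gamma chain of the interleukin 2 receptor family, stood at 214, 240 and 268 CPM in DEK replicates 1, 2 and 3, against 138, 132 and 141 CPM in vehicle replicates 1, 2 and 3. Its groups did not overlap, and the rise was 1.75-fold (adjusted p = 0.00274, edgeR with the block). Nor did the groups of Csf2rb, Csf2rb2 and Il10ra, which were not called and are named after their values were seen. That made 4 of 16 receptors, each with DEK higher, against 3.78% of all genes. Csf2rb and Csf2rb2 are close paralogs, and exons of both overlap Mir7676-1 and Mir7676-2 on the same strand, so their values are uncertain. Among the gp130 cytokines and receptors 0 of the 8 tested passed. Lifr, the receptor of leukaemia inhibitory factor, ranged from 9.30 to 11.6 CPM in DEK libraries and from 12.3 to 16.3 CPM in vehicle libraries (adjusted p = 0.276, edgeR with the block). In this list the groups did not overlap for Lifr, with DEK lower, nor for Il11ra1, with DEK higher and named after its values were seen, against 3.41% and 3.78% of all genes. Il11ra1 ranged from 10.4 to 13.4 CPM in DEK libraries and from 8.76 to 10.3 CPM in vehicle libraries. Il6st, given above beside Osm, had the next smallest p.
Among other inhibitors of JAK signalling 0 of 11 passed. The phosphatase gene Ptpn1, whose product dephosphorylates JAK2 and TYK2, stood at 305, 421 and 403 CPM in DEK replicates 1, 2 and 3, against 260, 256 and 285 CPM in vehicle replicates 1, 2 and 3 (adjusted p = 0.0545, edgeR with the block). Cbl, a ubiquitin ligase, ranged from 128 to 179 CPM in DEK libraries and from 125 to 152 CPM in vehicle libraries. Without the libraries numbered 2, edgeR with the block called 0 of all genes, these 6 included. Marker genes of other cells moved with the block too. Ly6c2 and Cx3cr1 of the 5 monocyte markers and Lcn2 of the 10 neutrophil markers rose, where 0.869% of all genes rose. C1qb, C1qc and Mertk of the 6 macrophage markers and Epx and Prg3 of the 6 eosinophil markers fell, where 0.413% of all genes fell. Of the uncalled monocyte markers Csf1r lay above 0, and Ccr2 and F13a1 below. Of the uncalled neutrophil markers Camp, Ltf, Cxcr2, Mmp8 and Mmp9 lay above 0, and S100a8, S100a9, Retnlg and Ngp below. The monocyte markers took 0.507 to 0.778% of counts in DEK libraries and 0.468 to 0.676% in vehicle libraries, and the part of cell content in the calls was not tested.

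**Figure D4:**
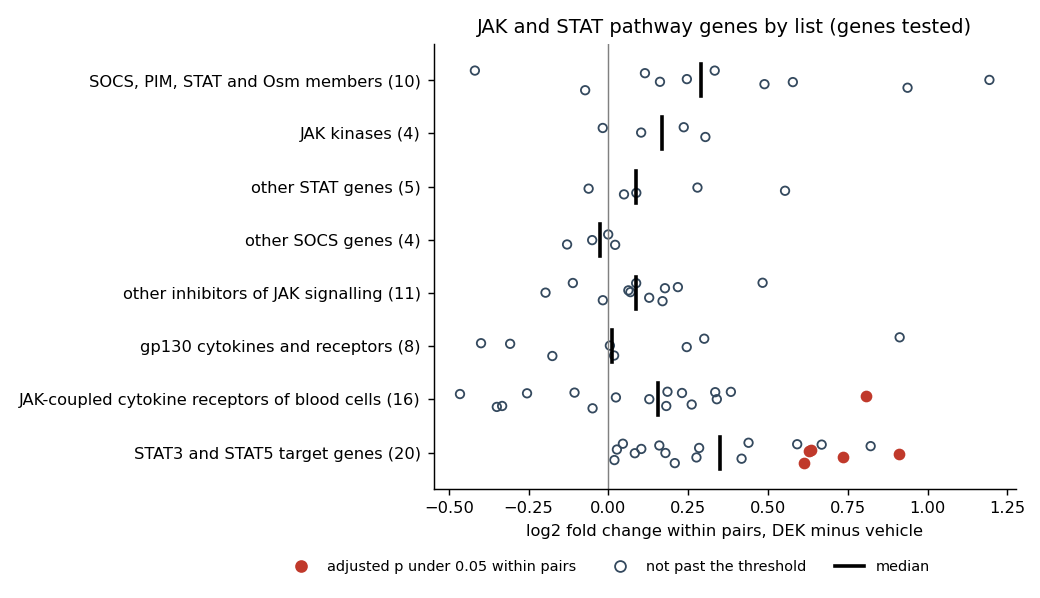
Log2 difference of DEK minus vehicle with the replicate block for each tested gene, by list, with list sizes in brackets; filled points passed an adjusted p of 0.05 and the bar is the list's median. The filled points are 5 STAT3 and STAT5 target genes and the receptor gene Il2rg, and none lies among the SOCS, PIM, STAT and Osm genes.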

How the data were processed

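The authors deposited read counts per gene. Per the file headers, featureCounts 1.6.1 summed reads over the exons of each mm10 gene, from 1 alignment per library, with no option for strand or for overlapping genes, so a read in exons of more than 1 gene was left out. Per the submitters' processing notes, Trim Galore, STAR, HTSeq and edgeR were used; the header names featureCounts where the notes name HTSeq, and it describes the counts used here. Per the labels' protocols, RNA was treated with DNase and libraries were stranded and made from polyadenylated RNA.

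In R 4.3.3, edgeR 4.0.16 tested 13803 genes that passed filterByExpr, with TMM scaling, robust quasi-likelihood fits, two-sided p and Benjamini-Hochberg adjustment over all of them, at a threshold of 0.05. Fold changes are DEK over vehicle, with SE from the F statistic. CPM use TMM-scaled totals, RPKM also the table's exon lengths, and log2 CPM of single libraries add 2 counts. DESeq2 1.42.0 and limma 3.58.1 were alternatives, and the fit was tested on simulated data.

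The fit without a block is the main one. Deviations from the group mean correlated across genes by 0.55, 0.56 and 0.80 between libraries of equal number 1, 2 and 3. Each was over the minimum of 0.1 set for fitting the numbers as pairs. Unequal numbers 1 and 2 also correlated, by 0.52 and 0.41, so this check cannot tell whether 1 belongs with 1 and 2 with 2. The labels do not say what a number marks. P-values measure the spread between these libraries, which may be technical. Named genes are the members, every called gene of a pathway list, and otherwise the 2 of smallest p in the list; 1 gene that this rule names is not reported here. Members and lists were chosen with earlier results of these data known.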

Additional observations from a re-analysis of the deposited data

How the results depend on the processing

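The labels give both groups the numbers 1 to 3, and pairing by number changed the counts of calls most. The fit without the block called 0 of all genes, 0 of the 10 genes and 0 of the other pathway genes. With the replicate block edgeR called 177, 0 and 6, DESeq2 347, 1 and 9, and limma-voom 171, 1 and 7; the 1 gene was Socs3. Leaving out 1 pair at a time, edgeR with the block called 181, 0 and 641 of all genes without pairs 1, 2 and 3, 0 to 2 of the 10 genes and 0 to 11 (7 without pair 1) of the pathway genes. Socs3 and Pim1 were called without pair 1 (adjusted p = 0.00066 and 0.0378, edgeR), 0 genes without pair 2, and Socs3 and Socs1 without pair 3 (adjusted p = 5.8e-07 and 0.0227, edgeR). Without a block, DESeq2 called 58 genes and 4 pathway genes, and leaving out both libraries numbered 3, chosen after seeing the data, gave 168 and 3. Leaving out single libraries gave 0 to 1 genes in all. The median log2 difference of the 10 genes ranged from 0.016 without DEK replicate 3 to 0.70 without vehicle replicate 3. Socs1, Socs3 and Stat3 were above 0 in all 19 alternatives.

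Signs turned for 7 of the 10 genes. Leaving out single libraries, the log2 difference ranged from -1.05 to 0.12 for Socs2 (0.019 without DEK replicate 2, the highest without vehicle replicate 3), from -0.40 to 1.01 for Cish, from -0.14 to 1.06 for Pim1 and from -0.21 to 1.28 for Osm, the last 3 lowest without DEK replicate 3. It ranged from -0.021 without vehicle replicate 3 to 0.26 for Pim2, from -0.092 without DEK replicate 2 to 0.30 for Pim3, and from -0.16 to 0.0085 for Stat5a, which was above 0 without vehicle replicate 1 and, at 0.0026, without DEK replicate 3. With the block, Pim2 was -0.00027 without pair 3, Pim3 -0.095 without pair 2, and Stat5a 0.0067 without pair 1; Pim2 was -0.0012 without a block or libraries numbered 3. The cause was not tested. Scaling and filter alternatives changed no sign and no call among the 10 genes. Fitted with the block, edgeR put the variation between libraries at 13.1% (coefficient of variation), and at 33.1% in the unpaired fit. Counts were lowest for Socs2 among the 10 genes, at 49 to 160 per library, and Osmr and Il11 did not pass the filter on low counts.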
